A study of Homo sapiens with 18 samples.

Results

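The genes described here are 8 matrix genes, SPARC, FBLN1, FBLN2, DCN, LUM, LAMC3, SMOC1 and MXRA5, out of 58735 genes in the deposited count table. They were picked by name, as matrix genes usually made by fibroblasts and reported as expressed in only 1 of the keratinocyte lines HaCaT and TIGK. HaCaT is an immortal line of skin keratinocytes, and TIGK is a line of gingival (gum) keratinocytes immortalised with telomerase. RNA was sequenced from cultures of both lines to ask what sets oral apart from skin keratinocytes during healing. The 6 groups were HaCaT before scratching (0 h), HaCaT scratched and collected after 6 h or after 24 h, and TIGK at the same 3 times, with 3 libraries in each. Each line stands for its tissue as a single established line, and no unscratched culture of 6 h or 24 h was among the groups, so time after the scratch cannot be told apart from time in culture.

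These proteins fill the space around connective tissue cells or form the sheet beneath an epithelium. Decorin (DCN) and lumican (LUM) are small leucine-rich proteoglycans that coat collagen fibrils, and decorin also binds TGF-beta. The fibulins FBLN1 and FBLN2 are secreted glycoproteins of elastic fibres and basement membranes, and LAMC3 is the gamma 3 chain of laminin, the trimer that basement membranes are built on. SPARC is a collagen-binding matricellular glycoprotein, SMOC1 is its relative and acts on BMP signalling, and MXRA5 is a secreted protein with leucine-rich repeats and immunoglobulin-like domains. In skin and gum most of them are known as products of the fibroblasts under the epithelium.

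The label held for 6 of the 8 genes and not for the other 2. FBLN2, DCN, LUM, LAMC3 and SMOC1 were measured in TIGK and were at or near 0 counts in HaCaT, and MXRA5 was measured in HaCaT and near 0 counts in TIGK. SPARC and FBLN1 were measured in both lines in all 18 libraries. The genes lie apart in the genome except DCN and LUM, which are neighbours on chromosome 12 of build hg38, on the same strand and 28653 bases from each other: LUM at chr12:91102629-91111831 and DCN at chr12:91140484-91183123, both on the minus strand. SPARC lies at chr5:151661096-151687165 (minus), FBLN1 at chr22:45502238-45601135 (plus), FBLN2 at chr3:13549131-13638422 (plus), LAMC3 at chr9:131009082-131094473 (plus), SMOC1 at chr14:69854131-70032366 (plus) and MXRA5 at chrX:3308565-3346641 (minus). All are annotated as protein-coding, and a count covers the reads assigned to the whole gene.

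The 250 bases before the annotated start are shown for 4 genes with contrasting patterns, from RefSeq on GRCh38.p14, 5′ to 3′ on the gene's strand. FBLN2 was restricted to TIGK and rose little, SMOC1 fell early in TIGK, MXRA5 was restricted to HaCaT, and SPARC was read in both lines. Capitals mark matches, on either strand, to the GC box GGGCGG, the TATA box TATAAA, the CCAAT box CCAAT and the AP-1 site TGANTCA.
FBLN2, chr3:13548875-13549124: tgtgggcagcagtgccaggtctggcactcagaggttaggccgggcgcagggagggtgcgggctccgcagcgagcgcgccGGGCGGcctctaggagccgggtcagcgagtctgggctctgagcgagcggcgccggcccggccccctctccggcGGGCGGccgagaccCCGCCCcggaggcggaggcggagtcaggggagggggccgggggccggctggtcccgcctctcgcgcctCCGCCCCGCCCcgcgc
SMOC1, chr14:69879166-69879415: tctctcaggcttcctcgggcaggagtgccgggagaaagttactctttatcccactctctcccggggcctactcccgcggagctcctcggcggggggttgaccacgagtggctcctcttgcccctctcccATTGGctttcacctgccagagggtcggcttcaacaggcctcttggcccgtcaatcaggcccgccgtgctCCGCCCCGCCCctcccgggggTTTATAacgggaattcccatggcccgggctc
MXRA5, chrX:3346653-3346902: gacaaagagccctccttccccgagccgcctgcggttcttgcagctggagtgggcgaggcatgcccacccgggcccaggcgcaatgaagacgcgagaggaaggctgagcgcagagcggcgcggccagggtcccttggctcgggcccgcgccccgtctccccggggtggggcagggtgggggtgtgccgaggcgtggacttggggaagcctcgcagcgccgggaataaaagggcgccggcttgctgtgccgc
SPARC, chr5:151686916-151687165: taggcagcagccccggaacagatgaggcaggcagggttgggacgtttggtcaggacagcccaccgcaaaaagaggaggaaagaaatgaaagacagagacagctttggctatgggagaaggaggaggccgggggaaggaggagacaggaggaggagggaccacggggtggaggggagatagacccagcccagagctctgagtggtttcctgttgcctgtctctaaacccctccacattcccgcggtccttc
The FBLN2 window held 5 GC boxes and 33 CpG dinucleotides. The SMOC1 window held 2 GC boxes that overlap each other, a CCAAT box and a TATA box, with 25 bases between the TATA box and the annotated start, and 17 CpG. This start lies 25285 bases inside the gene as the count table bounds it. The SPARC start lies 250 bases inside its gene, so the SMOC1 and SPARC windows both lie within the genes as counted. Neither the MXRA5 window, with 25 CpG, nor the SPARC window, with 7 CpG, held any of the motifs, and no window held an AP-1 site. Among all 35116 windows of this length, 42.6% held a GC box, 32.0% a CCAAT box, 10.7% a TATA box and 6.6% an AP-1 site, and the median window had 11 CpG. RefSeq held 6 windows for 5 of the 8 genes. The other FBLN2 window, chr3:13568490-13568739, lies inside the gene and held 0 GC boxes and 11 CpG. FBLN1, the other one matched, had 27 CpG and 1 GC box, and DCN, LUM and LAMC3 are named only.

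Libraries held 14238090 to 16811317 counts in HaCaT and 14763305 to 25011331 in TIGK. Levels below are CPM, read counts scaled to library size with TMM, and ± is the SD of 3 libraries. Keratinocyte markers were present in full, 14 of 14 in every group. In TIGK, the libraries with the letter C at 0 h and at 6 h stood apart from the other 16. They listed 26246 and 25161 genes with a count, where the others listed 21164 to 22799, and their mitochondrial shares were 5.08% and 4.98%, where the others had 5.84% to 8.08%. Calls for the 8 genes were also made without them. Other genes named below were tested in TIGK only with them.

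The difference between the lines chose these genes, so their levels are given as a description with no test. SPARC stood at 82.5 ± 6.20, 80.2 ± 1.76 and 86.5 ± 0.728 CPM in HaCaT at 0 h, 6 h and 24 h, against 675 ± 26.7, 708 ± 15.7 and 707 ± 30.9 CPM in TIGK. It was thus 8.18-fold, 8.83-fold and 8.17-fold lower in HaCaT, with no overlap between the lines, yet plainly expressed there. FBLN1 stood at 92.2 ± 1.99, 86.3 ± 2.79 and 107 ± 5.18 CPM in HaCaT, against 108 ± 7.62, 104 ± 6.35 and 152 ± 4.33 CPM in TIGK. The lines were closest for this gene: HaCaT was 1.17-fold, 1.21-fold and 1.42-fold lower, and its libraries lay below those of TIGK at each time. In these bulk samples, fewer cells expressing a gene and less RNA per cell cannot be told apart.

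The remaining TIGK genes had next to no reads in HaCaT. FBLN2 had 9, 1 and 13 counts in all 3 HaCaT libraries together at 0 h, 6 h and 24 h, against 9785, 8258 and 9090 in TIGK, and was 888-fold and 693-fold lower in HaCaT at 0 h and 24 h. At 6 h its ratio rests on 1 count, with a counting interval of 1464-fold to 322142-fold (95%, exact, counting error only). DCN had 22, 16 and 28 counts in HaCaT, present in each of the 9 libraries, against 5807, 4695 and 10399 in TIGK, and was 218-fold, 293-fold and 377-fold lower in HaCaT. LAMC3 had 0, 4 and 2 counts in HaCaT, against 8731, 7610 and 4032 in TIGK. It was at least 777-fold lower in HaCaT at 0 h, taking 3 counts in each library as the limit that a count of 0 allows, and 1863-fold lower at 6 h.

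LUM and SMOC1 were low in TIGK as well. LUM had 1, 0 and 2 counts in HaCaT, against 132, 120 and 213 in TIGK, so that the ratio at 24 h, 111-fold lower in HaCaT, has a counting interval of 29.9-fold to 891-fold and the one at 6 h is at least 13.2-fold. SMOC1 had 0, 0 and 4 counts in HaCaT, all 4 in the letter A library of 24 h, against 1075, 139 and 134 in TIGK, and was at least 95.5-fold lower in HaCaT at 0 h. MXRA5 was the single gene of the set on the HaCaT side. It had 6949, 6754 and 11984 counts in HaCaT, against 11, 3 and 3 in TIGK, 693-fold higher at 0 h, with a counting interval of 1353-fold to 19171-fold at 24 h. Of the 8 genes, 6 differed at least 10-fold between the lines at 0 h. For comparison, 8.79% of all 17409 genes tested differed at least 10-fold at 0 h, 8.71% at 6 h and 8.19% at 24 h, and 62.6%, 62.6% and 61.7% were called different between the lines, but the choice of the genes fixes their own count.

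**Figure D1:**
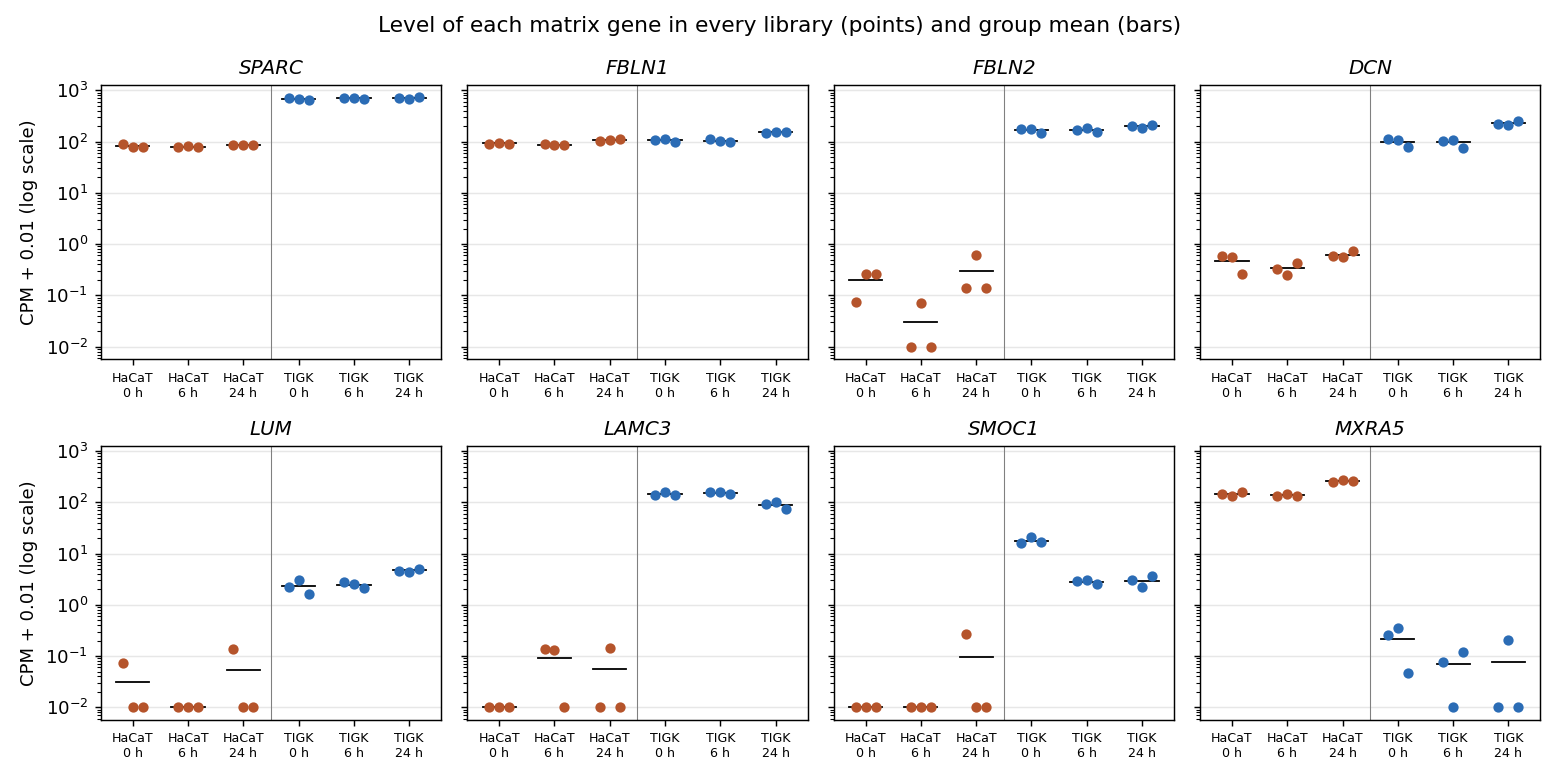
Each panel shows 1 gene, with CPM plus 0.01 on a log axis and the 6 groups along the x axis, HaCaT in red on the left and TIGK in blue on the right. Points are libraries and bars are group means, and points at the bottom edge are libraries with 0 counts. SPARC and FBLN1 are read in both lines, MXRA5 in HaCaT, and FBLN2, DCN, LUM, LAMC3 and SMOC1 in TIGK.

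Between genes, levels can be compared per length, on the authors' FPKM. In HaCaT at 0 h SPARC stood at 16.8 ± 1.28 FPKM, MXRA5 at 14.6 ± 1.32 and FBLN1 at 12.4 ± 0.229. SPARC and MXRA5 did not differ beyond their spread there. At 24 h MXRA5 led, at 26.7 ± 1.37 FPKM, ahead of SPARC at 17.9 ± 0.163 and FBLN1 at 14.6 ± 0.717. The other 5 averaged at most 0.0359 FPKM over the 9 HaCaT libraries. In TIGK the range was wide. At 0 h SPARC was highest, at 137 ± 5.59 FPKM, followed by FBLN2 at 34.0 ± 3.50, LAMC3 at 19.0 ± 1.72 and FBLN1 at 14.6 ± 1.02. DCN followed at 7.69 ± 1.52, SMOC1 at 4.05 ± 0.578 and LUM at 0.752 ± 0.234 FPKM, and MXRA5 stood at 0.0211. At 24 h LAMC3 had dropped behind FBLN1 and DCN, at 11.6 ± 1.72 FPKM beside 20.6 ± 0.510 and 17.7 ± 1.79, and SMOC1 behind LUM, at 0.673 ± 0.166 beside 1.55 ± 0.102. The order of DCN depends on its gene length of 12847 bases in the deposited table, which divides its counts.

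Time after the scratch was not part of the stated reason for choosing the genes, though earlier results of these data were known. Its effect was tested in each line over all 17409 genes (edgeR quasi-likelihood, Benjamini-Hochberg adjusted p, called under 0.05). At 6 h in TIGK, SMOC1 was the only gene of the 8 that was called, and it fell. SMOC1 stood at 15.9, 20.9 and 17.2 CPM in the 3 libraries of 0 h, at 2.93, 3.01 and 2.57 at 6 h, and at 3.01, 2.22 and 3.69 at 24 h. All 6 scratched libraries lay far below the 3 unscratched ones. The change at 6 h against 0 h was -2.66 ± 0.29 on the log2 scale (SE; adjusted p = 5.7e-06), 6.34-fold lower, and at 24 h against 0 h it was -2.59 ± 0.29 (adjusted p = 6.6e-07), while 24 h and 6 h did not differ detectably (0.07 ± 0.31, adjusted p = 0.887). The pseudogene RPL7AP6 overlaps SMOC1 on the opposite strand and stood at 11.2, 10.3 and 9.88 CPM in TIGK at 0 h, 6 h and 24 h. It had 687 and 834 counts in HaCaT at 0 h and 6 h, where SMOC1 had 0 counts in all 6 libraries. Of all genes, 3.62% were called at 6 h in TIGK and 1.12% were called lower. The other 6 genes measured in TIGK changed by -0.06 to 0.10 on the log2 scale at 6 h, with adjusted p of 0.72 or more.

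By 24 h, 6 of the 8 genes were called in TIGK against 0 h, 4 higher and 2 lower, where 32.3% of all genes were called (15.3% higher and 17% lower). The proteoglycans rose most. DCN stood at 114, 109.8 and 77.6 CPM in the libraries of 0 h, at 105, 109.8 and 74.9 at 6 h, and at 222, 212 and 257 at 24 h. The 24 h libraries all lay above the rest, and the letter C library was the lowest at both 0 h and 6 h. DCN was 2.30-fold higher at 24 h than at 0 h (log2 fold change 1.20 ± 0.13, adjusted p = 1.2e-07), and without those C libraries it was still called. LUM, its neighbour, stood at 2.21, 3.06 and 1.63 CPM at 0 h, at 2.73, 2.51 and 2.13 at 6 h, and at 4.65, 4.44 and 5.06 at 24 h, from 36 to 74 counts in each library. Its groups of 24 h and 0 h did not overlap either, and it was 2.06-fold higher (1.05 ± 0.37, adjusted p = 0.0341). This call was lost without both C libraries (0.84, adjusted p = 0.173) and without any 1 of the letter A or C libraries of 0 h or the letter A, B or C libraries of 24 h (adjusted p of 0.0647 to 0.16).

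The fibulins rose less. FBLN1 stood at 109, 114 and 99.4 CPM at 0 h, at 111, 103 and 98.4 at 6 h, and at 147, 152 and 156 at 24 h in TIGK. It was 1.41-fold higher at 24 h than at 0 h (0.49 ± 0.07, adjusted p = 8.3e-06), with no overlap. FBLN2, which binds several basement membrane proteins, stood at 175, 177 and 146 CPM at 0 h, at 167, 181 and 156 at 6 h, and at 204, 188 and 212 at 24 h. It was 1.21-fold higher (0.28 ± 0.10, adjusted p = 0.0446), a call just under the threshold that was lost without both C libraries (0.19, adjusted p = 0.159) and in 11 of the other 25 alternatives. SPARC stood at 701, 674 and 648 CPM at 0 h, at 724, 709 and 692 at 6 h, and at 719, 672 and 730.1 at 24 h. Its change at 24 h was 0.07, with a 95% interval of -0.06 to 0.20 on the log2 scale (adjusted p = 0.466).

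LAMC3 went the other way. It stood at 137, 162 and 139.6 CPM at 0 h, at 158, 159 and 147 at 6 h, and at 92.1, 100.3 and 74.5 at 24 h in TIGK. The fall came after 6 h: it was 1.64-fold lower at 24 h than at 0 h (-0.72 ± 0.11, adjusted p = 3.3e-05) and 1.74-fold lower than at 6 h (-0.80 ± 0.11, adjusted p = 6.9e-06). Between 24 h and 6 h in TIGK, 3 of the 8 genes were called, LAMC3 lower and FBLN1 (0.54) and DCN (1.26) higher, where 36.7% of all genes were called (17.8% higher and 18.9% lower). FBLN2 (0.26, adjusted p = 0.0549) and LUM (0.94, adjusted p = 0.0516) missed the threshold, and both passed with DESeq2, with only the TIGK libraries or with a replicate block. Over the 7 genes measured in TIGK the median change at 24 h against 0 h was 0.28 on the log2 scale, beside -0.01 for all genes. MXRA5 cannot be followed in TIGK, at 17 counts in 9 libraries.

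In HaCaT, only 3 of the 8 genes, SPARC, FBLN1 and MXRA5, were measured over 1 CPM. The others had too few reads there for a change to be read, so a count out of 8 is not comparable with the share of all genes. None of the 8 was called at 6 h against 0 h, where edgeR called 35 genes, or 0.201%, and 1315 had an unadjusted p under 0.05. Of the 8, FBLN2 and LAMC3 were among these, on at most 9 counts in a group. DESeq2 called 105 genes and none of the 8. At 24 h against 0 h, 2 of the 3 genes measured in HaCaT were called, both higher, and none of the others. Of all genes, 31.4% were called and 15.5% called higher. MXRA5 stood at 145, 133 and 158 CPM at 0 h, at 133, 149 and 136 at 6 h, and at 253, 278 and 257 at 24 h. Its change at 6 h was -0.06 (adjusted p = 0.961), and at 24 h it was 1.80-fold higher than at 0 h, with no overlap (0.85 ± 0.11, adjusted p = 1.4e-06). FBLN1 stood at 91.0, 94.5 and 91.0 CPM at 0 h, at 89.5, 84.6 and 84.7 at 6 h, and at 102, 106 and 112 at 24 h. It was 1.16-fold higher at 24 h than at 0 h (0.21 ± 0.07, adjusted p = 0.0278), again with no overlap. This call was lost without any 1 of the HaCaT letter A or C libraries of 0 h or the letter B or C libraries of 24 h (adjusted p up to 0.127).

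SPARC stood at 89.5, 80.0 and 77.9 CPM at 0 h, at 78.6, 82.1 and 80.0 at 6 h, and at 85.7, 86.8 and 87.1 at 24 h in HaCaT. Its 24 h libraries lay within the range of 0 h, and the change was 0.07 (95% interval -0.06 to 0.20, adjusted p = 0.481). Between 24 h and 6 h in HaCaT, 2 of the 3 genes measured there were called, both higher. Of all genes, 35.7% were called and 17.6% called higher. The 2 were MXRA5 (0.92 ± 0.11, adjusted p = 3.5e-07) and FBLN1 (0.31 ± 0.07, adjusted p = 0.00164). FBLN2, which lies under 1 CPM in HaCaT, also passed the test (3.37, adjusted p = 0.00921), which makes 3 of the 8. FBLN2 rests on 13 counts against 1, with 9 of the 13 in the letter B library of 24 h. Without that library its adjusted p was 0.151, leaving 2 of the 8 called, and with only the HaCaT libraries it had too few reads to be tested. Over the 3 genes measured in HaCaT the median change at 24 h against 0 h was 0.21, beside 0.00 for all genes.

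**Figure D2:**
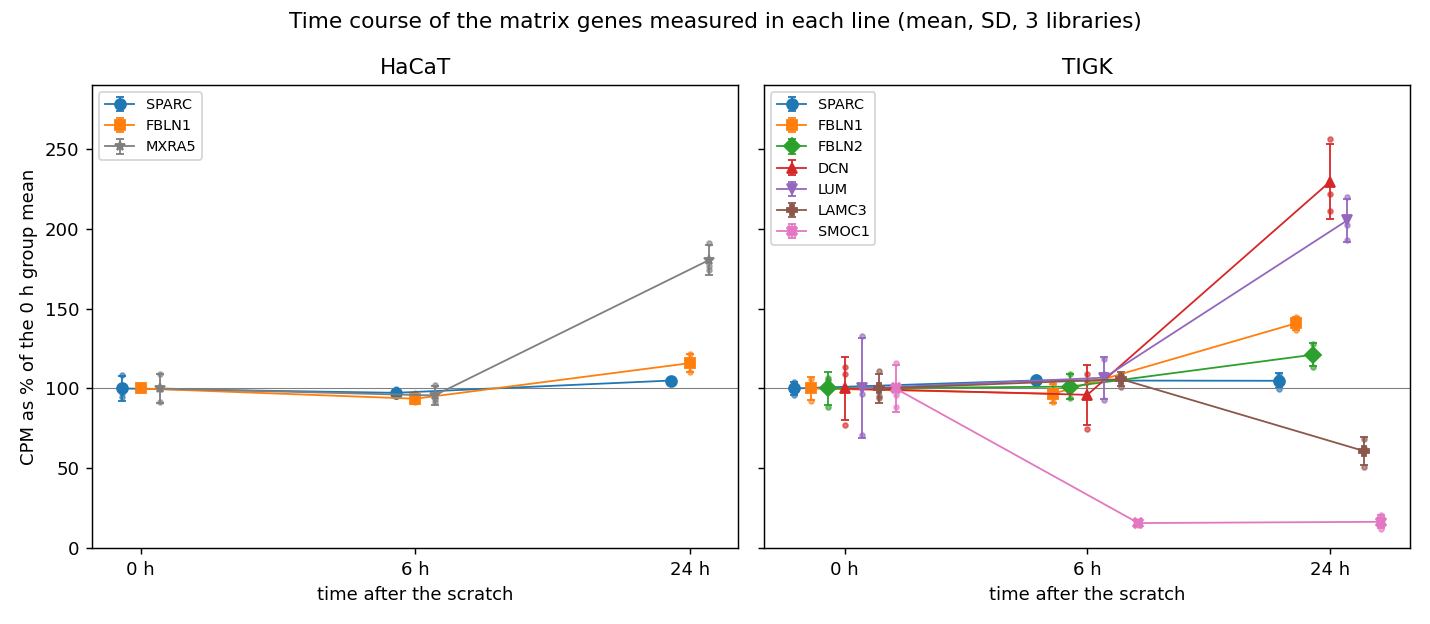
CPM of each gene as a percentage of its 0 h group mean (y axis) against time after the scratch (x axis), in HaCaT on the left and TIGK on the right. Large symbols are means of 3 libraries with SD, small dots are libraries, and genes near 0 counts in a line are left out. SMOC1 is low from 6 h on, DCN, LUM and MXRA5 are raised at 24 h, LAMC3 is lowered at 24 h, and SPARC stays near 100%.

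**Figure D3:**
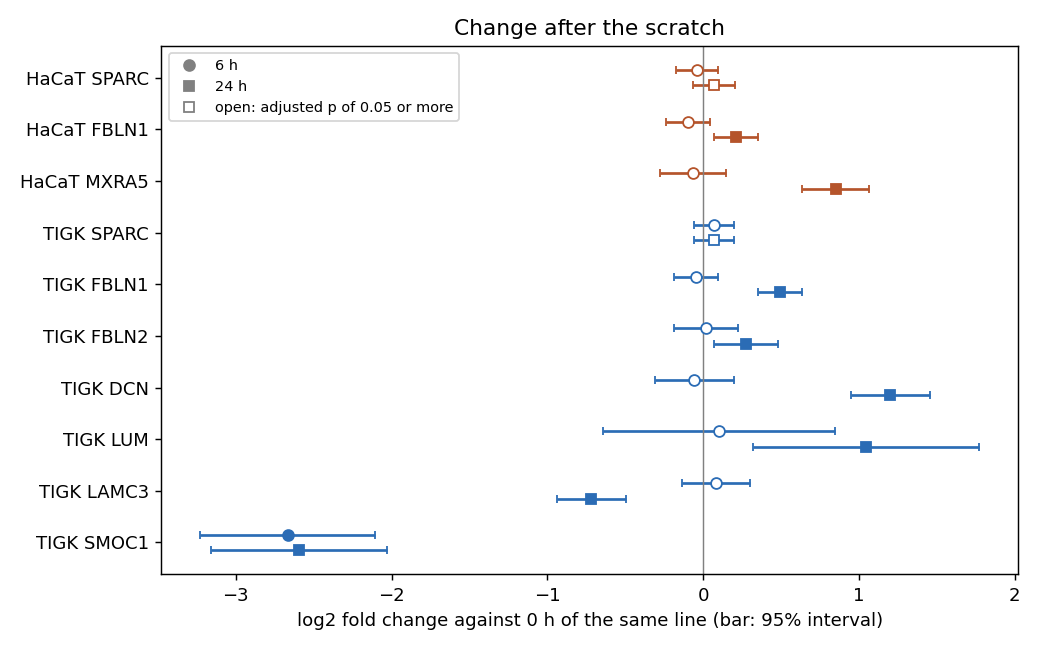
Log2 fold change of each gene against 0 h of the same line (x axis) at 6 h (circles) and 24 h (squares), HaCaT above TIGK, with 95% intervals. Filled symbols have an edgeR adjusted p under 0.05. SMOC1 is the single gene with a filled circle.

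Whether the lines differed in their response can be tested for SPARC and FBLN1, the 2 genes measured in both. The response at 24 h was 0.21 in HaCaT and 0.49 in TIGK for FBLN1, a difference of -0.28 ± 0.10 on the log2 scale (edgeR adjusted p = 0.0689), where 13.5% of all genes were called. It did not pass the threshold with edgeR and passed with DESeq2 (adjusted p = 0.04). For SPARC the difference at 24 h was 0.00, with a 95% interval of -0.18 to 0.19 (adjusted p = 1). At 6 h the differences were -0.11 for SPARC (adjusted p = 0.747) and -0.05 for FBLN1 (adjusted p = 0.927), where 0.752% of all genes were called.

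The authors' deposited tables of comparisons, in which every listed gene has an adjusted p under 0.01, hold SMOC1 for TIGK at 6 h, with a log2 fold change of -2.66. For TIGK at 24 h the authors' deposited table lists SMOC1 (-2.58), DCN (1.22), LAMC3 (-0.70), FBLN1 (0.52) and LUM (1.07), and for HaCaT at 24 h MXRA5 (0.86) and FBLN1 (0.22). All signs matched those from the counts, and the authors' deposited table for HaCaT at 6 h lists none of the 8.

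Markers of fibroblasts were followed as a list of 15, beside these genes. Their summed level was 246 to 259, 214 to 229.9 and 254 to 304 CPM in HaCaT at 0 h, 6 h and 24 h, against 786 to 919, 877 to 1043 and 828 to 1045 CPM in TIGK. Of the 15, 10, 13 and 11 had a count in HaCaT and 13, 13 and 11 in TIGK, and the sum was higher in TIGK. Most of it came from collagens: COL5A1 was at 174 CPM in HaCaT and 398 in TIGK at 0 h, COL1A1 at 26.7 and 152, and COL6A2 at 0.0634 and 124. TWIST1, a transcription factor of mesenchymal cells, was at 7.44 CPM in HaCaT and 44.1 in TIGK, and its relative TWIST2 at 6.49 and 29.1. FAP, a protease of activated fibroblasts, was at 0 in HaCaT, against 2.98 CPM in TIGK, and PDGFRB was at 0.458 and 1.55. Other defining markers were at or near 0 in TIGK at 0 h: PRRX1 and POSTN had no count, COL1A2 stood at 0.0205 CPM, THY1 at 0.0756 and PDGFRA at 0.207. At 24 h against 0 h in TIGK, where DCN and LUM rose, 9 of the 15 were tested and 3 rose. Of all genes, 15.3% were called higher and 17% lower there. Only 8 of the 15 averaged at least 1 CPM in TIGK at 0 h, and 9 at 24 h. The 3 that rose were COL3A1 by 2.20 on the log2 scale (edgeR adjusted p = 0.0306), TWIST1 by 0.59 (adjusted p = 0.0101) and COL1A1 by 0.25 (adjusted p = 0.0163). TWIST2 fell by 0.78 (adjusted p = 0.00124), and the summed levels of 24 h and 0 h overlapped. Summed melanocyte, endothelial and immune markers stayed at or under 27.7, 8.15 and 26.8 CPM in all libraries, with TYR at 0 in every group. The melanocyte sum was 21.0 to 27.7 CPM at 24 h and 13.0 to 15.4 at 0 h in TIGK, mostly MITF. The endothelial sum was 4.99 to 6.86 CPM at 24 h and 1.62 to 3.63 at 0 h in TIGK. The immune sum was 22.6 to 25.9 CPM at 24 h and 18.4 to 19.9 at 0 h in TIGK. Pericyte and smooth muscle markers summed to 57.4 to 69.9 CPM at 24 h and 85.6 to 95.6 at 0 h in TIGK, mostly CSPG4. At 6 h they summed to 129 to 139.9 CPM. RGS5, on this list, has 2 entries of that symbol in the counts, and only the first entered these sums. The pericyte and smooth muscle sum in TIGK was thus lower at 24 h than at 0 h, and higher at 6 h. The part of these cell types in the results was not tested.

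The 8 genes belong to families whose other members give a wider view of the same matrix. Of 62 relatives and partners in 7 lists, 47 had enough reads to be tested. At 24 h against 0 h in TIGK, 10 rose and 11 fell (44.7% called, beside 32.3% of all genes; median change -0.09 and -0.01), and in HaCaT 12 rose and 9 fell (44.7% called, beside 31.4%). At 6 h, 4 rose in TIGK (8.51% called, beside 3.62% of all genes) and 1 in HaCaT (2.13%, beside 0.201%). Between the lines at 0 h, 12 were higher and 24 lower in HaCaT (76.6%, beside 62.6%), with a median of -0.60.

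Among 15 other small leucine-rich proteoglycans and relatives, 7 were tested and 1 rose and 1 fell at 24 h in TIGK. BGN (biglycan), the closest relative of decorin, moved opposite to it: it stood at 58.4 ± 9.08 CPM at 0 h, 59.5 ± 7.26 at 6 h and 41.5 ± 2.42 at 24 h in TIGK (-0.49, adjusted p = 0.00569). In HaCaT it was 4.39 to 6.40 CPM. ECM2 rose, to 1.15 ± 0.0358 CPM at 24 h against 0.314 ± 0.287 at 0 h (1.72, adjusted p = 0.00772). TSKU (-0.04) and PODNL1 (0.30) did not pass the test in TIGK. KERA (keratocan) and EPYC (epiphycan), which belong to the same family, had no count in any library, and KERA lies next to LUM on chromosome 12.

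All 6 other fibulin family genes were tested and 1 rose at 24 h in TIGK. EFEMP1 (fibulin 3) was at 155 ± 8.72 CPM in HaCaT and 296 ± 15.5 in TIGK at 24 h, and was 0.22 higher than at 0 h in TIGK on the log2 scale (adjusted p = 0.0135). FBLN5, which elastic fibre assembly needs, was split between the lines like FBLN2: it was at 0.105 ± 0.0957 CPM in HaCaT and 6.59 ± 1.56 in TIGK at 0 h. HMCN1, a giant fibulin, was split the other way, at 6.44 ± 1.10 CPM in HaCaT and 0.154 ± 0.139 in TIGK at 0 h. Neither changed detectably at 24 h in TIGK (-0.42, adjusted p = 0.267, and 0.81, adjusted p = 0.466), nor did EFEMP2 (-0.52).

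In the SPARC family, 4 of 6 were tested and 1 rose at 24 h in TIGK. SPOCK1, a secreted proteoglycan (testican), stood at 7.95 ± 1.30 CPM at 0 h, 6.28 ± 1.43 at 6 h and 25.2 ± 6.04 at 24 h in TIGK (1.67 at 24 h, adjusted p = 9.6e-08), and rose by 0.60 in HaCaT (adjusted p = 0.0109). SMOC2, the closest relative of SMOC1, had no count in HaCaT at 0 h and stood at 3.22 ± 0.817, 2.58 ± 0.289 and 5.38 ± 0.452 CPM in TIGK at 0 h, 6 h and 24 h. Unlike SMOC1 it did not fall at 6 h by the test (-0.32, adjusted p = 0.805), and at 24 h its change was 0.74 (adjusted p = 0.136). FSTL1 (0.19) and SPOCK2 (-0.27) did not pass the test at 24 h in TIGK.

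Of 11 other laminin chains, 10 were tested, and in TIGK 5 rose and 1 fell at 24 h. LAMA5, a basement membrane chain, rose to 1391 ± 209.5 CPM in TIGK at 24 h, against 747 ± 51.2 at 0 h (0.90, adjusted p = 3.3e-08). LAMB1 and LAMB2 rose by 0.60 and 0.58 and LAMA3, a chain of the epithelial laminin, by 0.71, so the fall of LAMC3 was not shared by them. LAMA1, named here after its values were seen, was split between the lines like LAMC3: it stood at 0.167 ± 0.180, 0.312 ± 0.173 and 0.659 ± 0.429 CPM in HaCaT, against 158 ± 1.03, 146 ± 4.36 and 158 ± 21.7 in TIGK. It did not change detectably in TIGK at 24 h (0.00, adjusted p = 1).

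The 8 basement membrane partners were all tested, and 1 rose and 2 fell at 24 h in TIGK. AGRN (agrin) rose by 0.49 (adjusted p = 0.000176), COL4A1 (a collagen IV chain) fell by 0.35 (adjusted p = 0.003), NID2 (nidogen 2) fell by 0.60 (adjusted p = 0.0275) and HSPG2 (perlecan) changed by -0.09 (adjusted p = 0.64). The MXRA list, with 3 of 4 tested, had 2 that fell in TIGK: MXRA8 by 0.70 (adjusted p = 0.00671) and PXDN (peroxidasin, which crosslinks collagen IV) by 0.93 (adjusted p = 1.7e-06). PXDN rose by 0.47 in HaCaT (adjusted p = 0.00369), where MXRA5 rose, and its response differed between the lines (1.41 on the log2 scale, adjusted p = 2.7e-06). MXRA7 did not pass the test in either line. Among 12 elastic fibre partners of the fibulins, 9 were tested, and 1 rose and 5 fell at 24 h in TIGK. FBN1 (fibrillin 1) was at 3.00 ± 0.558 CPM in HaCaT and 101.7 ± 5.15 in TIGK at 0 h, and at 24 h it was 1.14 higher in HaCaT (adjusted p = 2.6e-05) and 0.43 lower in TIGK (adjusted p = 0.00539) on the log2 scale. These responses differed between the lines (1.57, adjusted p = 1.4e-05). LTBP2 (-0.57) and LTBP3 (-0.46) fell in TIGK and MFAP5 rose (0.85, adjusted p = 0.00334).

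**Figure D4:**
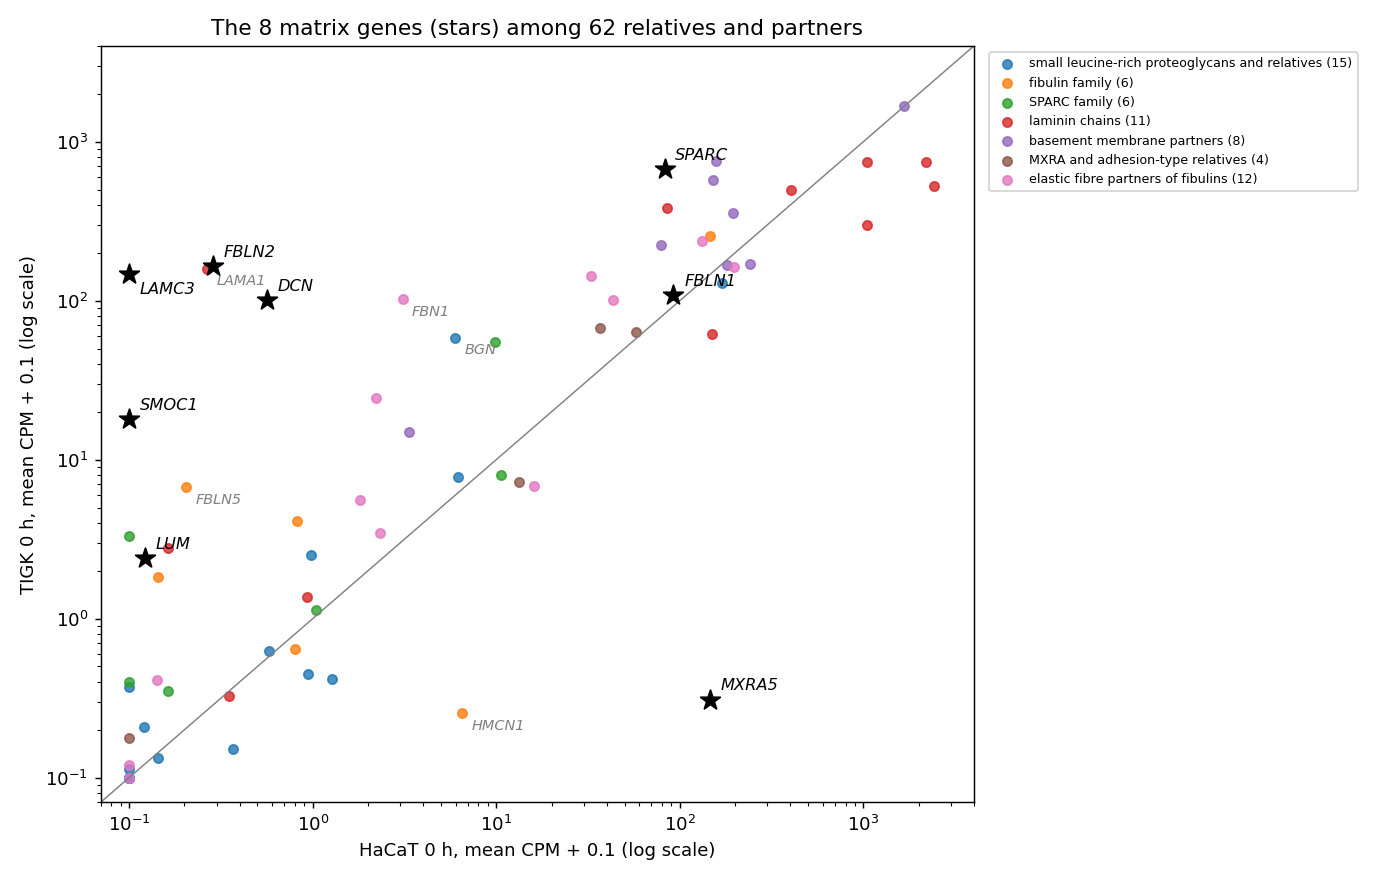
Mean CPM plus 0.1 of each gene at 0 h on log axes, HaCaT on the x axis and TIGK on the y axis, with the line of equal levels in grey. Stars are the 8 genes and dots the 62 relatives, coloured by list. FBLN2, DCN, LAMC3 and LAMA1 sit together at the upper left, MXRA5 and HMCN1 at the lower right, and SPARC and FBLN1 among the relatives read in both lines.

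The genes with the most similar course were found among genes of at least 5 CPM over the 9 libraries of a line, by the root mean square difference of centred log2(CPM + 0.5). This is a description with no test, and the points share their libraries. For DCN in TIGK the nearest of 10698 genes were LGALS3BP (0.0729), PDE6A (0.102) and BTG1 (0.114), for LUM PML (0.111), HLA-B (0.136) and CPPED1 (0.141), and for LAMC3 ST3GAL2 (0.0644), SLC19A1 (0.0768) and MPP6 (0.0798). For FBLN1 they were RNF11, MAL2 and MSX2 (0.0579 to 0.059), for FBLN2 TECR, LDOC1 and ZDHHC12 (0.0585 to 0.0615) and for SPARC ANXA11, PAK4 and BAG6 (0.0356 to 0.0372). SMOC1 had no near match: the closest, SYTL2, OSBP2 and PC, differed by 0.555 to 0.673. In HaCaT, TMEM63C (0.0638), IRS2 (0.0675) and KATNAL1 (0.0676) of 10279 genes lay nearest to MXRA5.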

How the data were processed

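The submitters' processing notes name build hg38, featureCounts 1.5.0-p3, HISAT2 2.0.5 and StringTie 1.3.3b. The use of strand in counting and the role of each tool are not given in the sources used here. The authors deposited whole-number counts and FPKM per gene and library, and tables of comparisons with log2 fold changes and adjusted p-values per the file headers. Columns carry a letter, A, B or C, that the labels do not tie to replicate numbers. Nothing in the labels says that the 3 libraries of a group came from separate cultures, so p-values may measure technical spread only.

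The tests ran on the counts in R 4.3.3 with edgeR 4.0.16: filterByExpr kept 17409 genes, including all 8, TMM scaled the libraries, and a quasi-likelihood model of 6 group means was fitted to 18 libraries (12 residual degrees of freedom, prior count 0.125). The SE is the absolute log2 fold change divided by the square root of F. The interval of a change is the estimate with 1.96 SE on each side. Calls were made at an adjusted p under 0.05 over all genes tested. Each gene measured at a level over 1 CPM in a line was read there, while counts out of 8 also include genes below that level. DESeq2 1.42.0 and limma 3.58.1 served as alternatives. The scripts were checked on simulated data. The 8 genes and the lists of relatives and markers were chosen with earlier results of these data known. The text names all 8 genes, up to 4 relatives per list by the lowest adjusted p at 24 h in TIGK or the highest level, and the 3 nearest profiles per gene. KERA, EPYC and LAMA1 were named outside this rule.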

Additional observations from a re-analysis of the deposited data

Results flagged for a closer look

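Among the relatives named above, 8 responded differently in the lines at 24 h against 0 h, by the edgeR test of the difference itself (HaCaT minus TIGK, log2 scale). These relatives were named for a low adjusted p at 24 h in TIGK or a high level, and the change in TIGK enters the difference, so the number that passed is a description and no support. Of the 8 matrix genes the difference was read for SPARC and FBLN1, which are measured in both lines, and neither passed. FBN1 differed by 1.57, with a change of 1.14 in HaCaT and -0.43 in TIGK (adjusted p = 1.4e-05), and PXDN by 1.41, with 0.47 and -0.93 (adjusted p = 2.7e-06). LAMA3 differed by -1.42, with -0.71 in HaCaT and 0.71 in TIGK (adjusted p = 2.0e-09). LAMB1 differed by -0.78, with -0.18 and 0.60 (adjusted p = 4.6e-05), AGRN by -0.68, with -0.19 and 0.49 (adjusted p = 0.00067), and LAMA5 by -0.62, with 0.28 and 0.90 (adjusted p = 0.00143). MFAP5 differed by -1.14, with -0.29 in HaCaT and 0.85 in TIGK (adjusted p = 0.011), and SPOCK1 by -1.07, with 0.60 and 1.67 (adjusted p = 0.00476). Groups of 3 libraries were too small for a test of single libraries far from the rest of their group.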

How the results depend on the processing

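The call of SMOC1 in TIGK at 6 h against 0 h held in all 26 alternatives, which include leaving out both TIGK C libraries. The calls of SMOC1, DCN, LAMC3 and FBLN1 in TIGK and of MXRA5 in HaCaT at 24 h against 0 h held in all 26 alternatives each. FBLN2 in TIGK lost its call in 12 of 26 (highest adjusted p 0.285), LUM in TIGK in 7 (0.173) and FBLN1 in HaCaT in 5 (0.128), and no direction reversed. At 24 h against 6 h in TIGK, 3 of the 8 genes were called, and 5 with DESeq2, with only the TIGK libraries, with the replicate block or with limma on log2(FPKM + 1). At 24 h against 0 h in HaCaT, 2 were called and 1 with no filter on low counts. The line difference at 24 h was called for 0 genes of the 2, and for 1 with DESeq2 or limma on log2(FPKM + 1). Among all genes, TIGK at 6 h had 630 calls and 338 with only the TIGK libraries. HaCaT at 6 h had 35, and 130 with no filter, 105 with DESeq2, 210 with only the HaCaT libraries, 70 with the replicate block, 18 with limma on log2(FPKM + 0.1) and 77 without both TIGK C libraries. The cause was not tested. Leaving out 1 library at a time gave 350 to 817 calls for TIGK at 6 h, 4680 to 5770 at 24 h and 5466 to 6402 between 24 h and 6 h, and 4 to 47, 4575 to 5713 and 5226 to 6494 in HaCaT. Of the 8 genes it gave 1 to 1, 4 to 6 and 3 to 5 in TIGK, 0 to 0, 1 to 2 and 2 to 4 in HaCaT, and 0 to 1 for the line difference at 24 h (1 without the TIGK 0 h letter B library) and 0 to 0 at 6 h. The replicate block used the column letter: 6 of 9 pairs of libraries with the same letter in TIGK, and 1 of 9 in HaCaT, had a correlation of deviations over 0.1 (range -0.171 to 0.715 over 11208 genes). All 3 pairs of 6 h and 0 h in TIGK did (0.369, 0.331 and 0.715), and with the block SMOC1 was still the 1 gene of the 8 called there and 786 of all genes were. In the other comparisons not every pair did, so the letters were not taken to pair the libraries. The depth limits statements on LUM and on genes at or near 0 counts in a line. The tests of relatives, cell type markers and neighbours were run with the 1 set of choices described. They were not run under the alternatives, so their calls in TIGK rest on the C libraries too.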

Other observations

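Some genes beside the 8 on the chromosome moved with them and others did not, which is given as values only. AIF1L, which starts 2003 bases after LAMC3 on the same strand, stood at 59.0, 67.6 and 34.8 CPM in TIGK at 0 h, 6 h and 24 h, and its change at 24 h against 0 h was -0.76 (edgeR adjusted p = 9.9e-06), beside -0.72 for LAMC3. In HaCaT, where LAMC3 was at or near 0 counts, AIF1L stood at 34.2, 28.2 and 39.4 CPM. FIBCD1, on the other side of LAMC3, lies 69796 bases away on the opposite strand. It changed by -1.94 at 24 h in TIGK (edgeR adjusted p = 8.2e-06). ATXN10, next to FBLN1, rose by 0.41 at 24 h in TIGK (edgeR adjusted p = 0.00215). In HaCaT, where FBLN1 rose, ATXN10 changed by -0.12 (edgeR adjusted p = 0.398). BTG1, the next protein-coding gene after DCN at 957155 bases, rose by 1.30 at 24 h in TIGK (edgeR adjusted p = 3.9e-08) and by 1.06 in HaCaT (edgeR adjusted p = 1.2e-06), where DCN had 16 to 28 counts in a group. Other neighbours did not move with the genes. PRKX, next to MXRA5, changed by -0.59 at 24 h in HaCaT (edgeR adjusted p = 0.000324), where MXRA5 rose. FAT2, next to SPARC, rose by 0.38 at 24 h in TIGK (edgeR adjusted p = 0.0107), where SPARC did not change detectably. RIBC2, next to FBLN1, and HDAC11 and WNT7A, next to FBLN2, were not called at 24 h in TIGK. Of all genes, 32.3% were called at 24 h in TIGK and 31.4% in HaCaT. All these neighbours were named after their values were seen.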
